A study of Mus musculus with 768 samples.

Results

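The 9 genes described here belong to signalling in developing nerve by neuregulin, by the adhesion receptor Adgrg6 and by the secreted protein Lgi4: Erbb2, Erbb3, Nrg1, Adgrg6, Lgi4, Adam22, Adam17, Gab1 and Ptpn11. They were taken by name from a table of 25700 genes read in single Schwann cells, the glia of peripheral nerve. None of them took part in sorting wells into cell states. Of the 9 genes, 8 had enough reads to be tested between states, and Nrg1 did not.

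Neuregulin 1 is displayed by axons, is cut by proteases such as Adam17 and Bace1, and binds the receptor Erbb3, which signals as a pair with Erbb2. Adaptors and enzymes such as Gab1 and the phosphatase Ptpn11 (Shp2) pass that signal on to the Ras/Mapk and Pi3k/Akt cascades, and the pathway is known for its part in Schwann cell survival, proliferation and myelination. Adgrg6 (Gpr126) is a G protein-coupled receptor that raises cyclic AMP and is known for its role at the onset of myelination, whereas Lgi4 is secreted by Schwann cells and binds Adam22, a member of the Adam family without protease activity.

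Cells came from sciatic nerves of pups at postnatal day 5, genotype P0Cre-/+ with ReYFP Tg/+ and βAct-DsRed Tg/+ on the C57bl/6J background, an untreated line in which Cre driven in the Schwann cell lineage switches on a yellow reporter. Sorting on the reporter put single cells into the 384 wells of each of 2 plates, and Smart-Seq2, a full-length RNA protocol, followed. Each plate was 1 pool of male and female animals and is 1 biological replicate, so every test rests on 2 plates per state. A total of 655 of 768 wells were retained, 325 on plate 1 and 330 on plate 2, with at least 1500 detected genes and outside the 4 corner positions of each plate.

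Wells were placed in 4 states by a rule on other genes. Cycling wells had at least 5 reads in 3 or more of 10 cell-cycle genes. The others were immature below 10 CPM (reads scaled to a fixed total) of Ncmap (the gene of non-compact myelin associated protein), intermediate from 10 CPM on with under 30000 CPM of the myelin gene Pmp22, and myelinating from 30000 CPM of Pmp22 on. This gave 57 cycling wells (32 and 25 on plates 1 and 2), 228 immature wells (106 and 122), 149 intermediate wells (79 and 70) and 221 myelinating wells (108 and 113). As many as 85 wells lay near a limit, 73 of them between 20000 and 40000 CPM of Pmp22. Reads were summed per state and plate into 8 sums of 13925435 to 98479212 reads, and levels are CPM after TMM scaling (a correction for RNA composition), unless given as RPKM, which further divides by kilobases of merged exons.

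The label of the cells was checked against markers. All 5 genes of the Schwann lineage list had reads, with Cryab in 654, Sox10 in 636, S100b in 411, Foxd3 in 184 and Gfra3 in 21 of 655 wells. At least 3 of them had 5 or more reads in 432 wells (66.0%). Over the sums, the summed level of the 7 myelinating markers ran from 4990 to 5092 CPM in cycling, from 6134 to 6312 in immature, from 25388 to 26178 in intermediate and from 79297 to 80980 in myelinating sums. Most of this was Mbp, with 3123 and 3564 CPM in cycling and 65904 and 63859 in myelinating sums. Since the states were cut on the myelin genes Ncmap and Pmp22, this order is no independent check of them. Of the neuron list, Elavl4, Rbfox3 and Isl1 had 0 reads, and the 8 genes together came to between 12.6 and 31.5 CPM. The same minimum of 3 genes with 5 or more reads was met in 21 wells for the fibroblast-like list and in 1 well for the neuron list. For the pericyte list it was met in 0 of 655 wells. Only 3 of its 5 genes had reads, and 1 of them, Acta2, was read in just 2 wells. This list could thus hardly meet the minimum, and the 0 sets no limit on pericyte wells. The endothelial, immune, perineurial and muscle lists could not meet it, since too few of their genes had 5 reads. Single genes were read more widely, with Pdgfrb in 152, Slc2a1 in 125, Cspg4 in 72, Cldn1 in 68 and Csf1r in 54 wells, whereas Pecam1, Ptprc and Rgs5 had 0 reads.

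Per length, Erbb3, Lgi4 and Erbb2 were the most abundant of the 9 genes and Nrg1 the least. The mean over the 8 sums was 22.2 RPKM ± 3.41 (SD, n = 8 sums of 2 plates) for Erbb3, 16.5 ± 2.44 for Lgi4, 16.2 ± 4.53 for Erbb2, 12.3 ± 4.25 for Ptpn11, 9.10 ± 2.64 for Adam17, 8.83 ± 3.69 for Gab1 and 3.40 ± 1.15 for Adgrg6. Adam22 followed at 0.382 ± 0.335 RPKM and Nrg1 at 0.0114 RPKM. Within single sums, Erbb3 stood above Lgi4 in 7 of 8. Lgi4 over Erbb2, Erbb2 over Ptpn11, Ptpn11 over Adam17 and Adam17 over Gab1 each held in 5 of 8, so that these neighbours did not differ beyond the spread between sums. Gab1 over Adgrg6 and Adgrg6 over Adam22 held in 8 of 8.

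The upstream sequence of 2 of the genes is shown because they stood out below, Adam17 by its change between states and Ptpn11 by its difference between plates. Each is the 250 bases before the RefSeq start site on GRCm38.p6, written 5′ to 3′ on the gene's strand. Capitals mark matches to ACAAT (a short core found in Sox-type sites, also read as ATTGT on the other strand) and to TGACG or CGTCA (the left and right parts of the cyclic AMP response element TGACGTCA).
Adam17, chr12:21373633-21373882, minus strand: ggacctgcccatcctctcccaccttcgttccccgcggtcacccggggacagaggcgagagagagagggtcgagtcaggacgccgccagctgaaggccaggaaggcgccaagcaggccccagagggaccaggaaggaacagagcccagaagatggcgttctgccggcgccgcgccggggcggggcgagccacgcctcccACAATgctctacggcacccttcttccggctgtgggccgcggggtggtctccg
Ptpn11, chr5:121191398-121191647, minus strand: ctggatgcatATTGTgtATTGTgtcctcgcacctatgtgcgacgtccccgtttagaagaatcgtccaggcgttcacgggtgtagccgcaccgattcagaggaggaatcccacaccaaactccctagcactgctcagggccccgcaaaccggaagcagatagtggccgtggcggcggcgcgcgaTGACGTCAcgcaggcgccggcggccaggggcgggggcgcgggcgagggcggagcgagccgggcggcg
In the Adam17 window ACAAT begins 52 bases before the start (position -52), and in the Ptpn11 window ATTGT begins at -240 and -233 and the whole TGACGTCA at -67. On either strand ACAAT occurs in 27.7% of the 32851 windows of this length in the table, TGACG in 17.8% and TGACGTCA in 1.55%. Entries were found for 6 of the 9 genes. Of the windows not shown, that of Adgrg6 held TGACG, that of Erbb2 held CGTCA, and those of Adam22 and Gab1 held no match. All 250 bases of the Adgrg6 window lie within exons of the GENCODE annotation, so by that annotation it is transcribed sequence. The Adam17 and Ptpn11 windows hold 0 such bases. A further motif searched, ACAAAG, occurs in 16.5% of all windows and was found in none of these genes. The GC content of both windows was high, at 70.4% for Adam17 and 66.8% for Ptpn11. A match to so short a motif is a description of the sequence and not a binding site.

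The main question put to these genes was whether their transcripts differ between Schwann cell states. In the edgeR quasi-likelihood test with Benjamini-Hochberg adjustment over 13904 genes, 0 of the 8 tested genes passed an adjusted p of 0.05 in any of 6 comparisons. Of all genes tested, 5.14% passed in myelinating against immature, 2% in intermediate against immature, 0.784% in myelinating against intermediate, 2.58% in cycling against immature, 9.55% in intermediate against cycling and 12.8% in myelinating against cycling. At an unadjusted p under 0.05 the count was 1 of 8 in myelinating against immature and 1 in myelinating against intermediate, both times Adam17, and 0 in the other 4. DESeq2 passed 1 of the 8 in myelinating against immature (Adam17), where it passed 1710 of 13709 genes, and 0 of the 8 elsewhere. Limma on mean CPM over wells passed 2 there (Erbb3 and Adam17), 1 in cycling against immature (Adam17) and 0 in the other 4. Of all genes it passed 1578 of 13904 in myelinating against immature and 799 of 13904 in cycling against immature. Both tools thus passed more genes of every kind than edgeR did, and their counts of members are not read as an excess.

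The 8 genes had a median absolute log2 change of 0.49 in myelinating against immature, beside 0.70 over all genes tested, and their median signed change was 0.04 beside -0.04. The 2 sets were not matched for level, so the smaller median is not read as steadiness. Per length, the 8 genes stood above 53.0% (Adam22) to 90.4% (Erbb3) of genes. Changes are relative to TMM scaling. With plain library size the median of all genes in that comparison moved to -0.42 on the log2 scale, and the split of all genes called went from 362 higher and 353 lower to 252 higher and 697 lower.

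**Figure D1:**
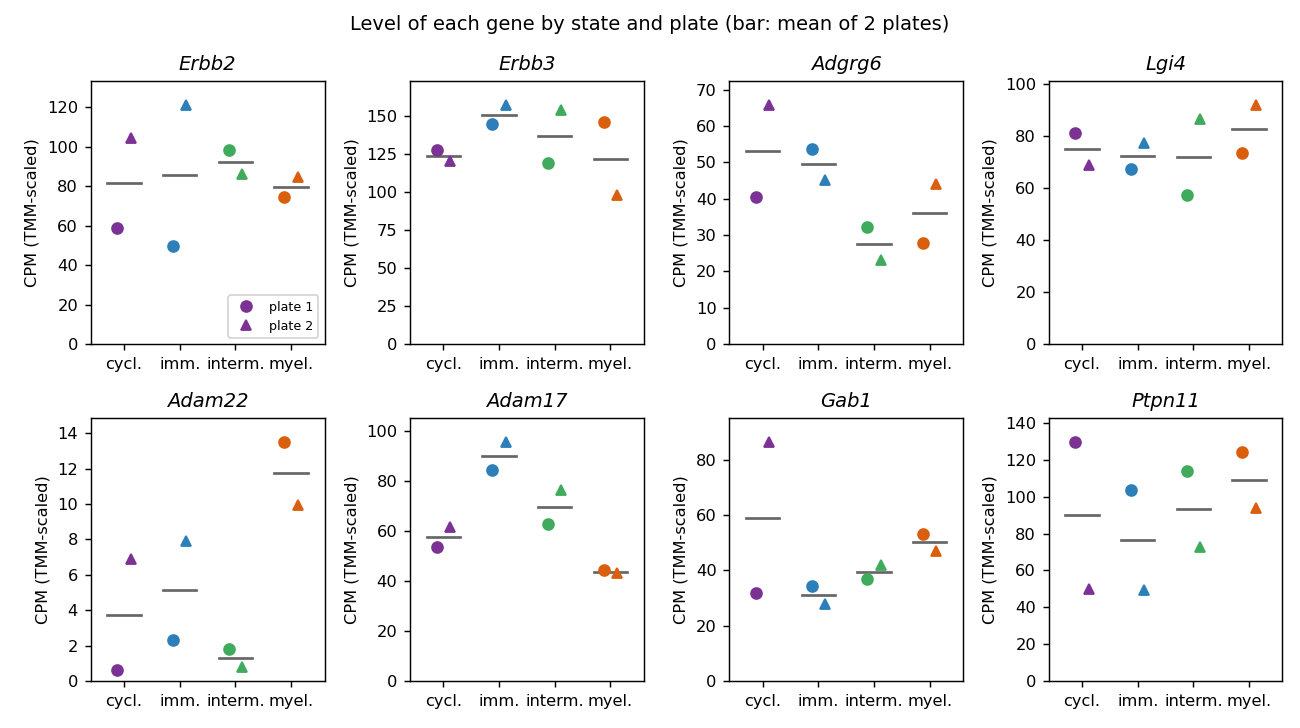
Level in CPM (TMM-scaled, linear axis from 0) of each of the 8 tested genes in the 4 states, with circles for plate 1, triangles for plate 2 and a grey bar for the mean of the 2 plates. Adam17 is lowest in myelinating wells on both plates (44.3 and 43.0 CPM), and Ptpn11 is higher on plate 1 in all 4 states.

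The receptor transcripts had state means within 1.24 times of each other for Erbb3 and 1.16 times for Erbb2. Erbb3 (ENSMUSG00000018166, chr10:128567523-128589652, minus strand), which binds neuregulin but has little kinase activity of its own, measured 128 and 120 CPM on plates 1 and 2 in cycling, 145 and 157 in immature, 119 and 154 in intermediate and 146 and 98.1 in myelinating sums. The states overlapped, and the 4 state means lay between 122 ± 34.0 and 151 ± 8.91 CPM (SD, n = 2 plates). From immature to myelinating wells the log2 change was -0.31 (SE 0.26, 95% interval -0.90 to 0.29, adjusted p = 0.687), and the plates gave log2 ratios of 0.01 and -0.68. Limma on mean CPM over wells gave -0.71 with an adjusted p of 0.0401.

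Erbb2 (ENSMUSG00000062312, chr11:98412470-98437716, plus strand), the partner that carries the kinase activity, measured 58.7 and 104 CPM in cycling, 49.7 and 121 in immature, 98.1 and 86.0 in intermediate and 74.3 and 84.5 in myelinating sums. The 2 immature sums were both its lowest and its highest value, and no state stood apart. Between immature and myelinating wells the fitted log2 change was -0.11 (SE 0.44, 95% interval -1.10 to 0.89, adjusted p = 0.966), with log2 ratios of 0.57 on plate 1 and -0.52 on plate 2. Its exons overlap those of Mien1, and the sources used here do not say that reads were counted by strand.

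Wells were compared for the receptor pair after each was thinned to 100000 reads, which left 633 wells and 22 out. Reads of both receptors were found in 148 of these wells (23.4%), of Erbb3 alone in 260 (41.1%), of Erbb2 alone in 83 (13.1%) and of neither in 142 (22.4%). The share with both ran from 17.8% (exact 95% interval 10.9 to 26.7) in immature wells of plate 1 to 29.2% in intermediate wells of plate 1 (19.05 to 41.1) and in cycling wells of plate 2 (12.6 to 51.1). Without thinning, Erbb3 was read in 475 of 655 wells (72.5%) and Erbb2 in 274 (41.8%). A well without a read may still hold the transcript, and the protocol has no molecular identifiers. The intervals cover only the counting error of wells. Wells of 1 plate come from 1 pool and are not replicates, so shares of wells are given without a test between states.

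Of the ligand Nrg1 (ENSMUSG00000062991, chr8:31814551-32884029, minus strand) there were 69 reads in all 655 wells, in 3 wells (0.458%). These were 1 and 5 reads in 2 immature wells of plate 1 and 63 reads in 1 myelinating well of plate 2. The other 6 sums held 0 reads. The gene was not tested.

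Adam17 (ENSMUSG00000052593, chr12:21323509-21373632, minus strand), a protease that can cut neuregulin 1, showed the clearest order of states. It measured 53.5 and 61.5 CPM in cycling, 84.1 and 95.6 in immature, 62.7 and 76.3 in intermediate and 44.3 and 43.0 in myelinating sums. Both immature sums lay above the other 6 and both myelinating sums below them. The log2 change from immature to myelinating was -1.04 (SE 0.29, 95% interval -1.70 to -0.38, unadjusted p = 0.00616, adjusted p = 0.0916), a level 2.06-fold lower (1.30 to 3.25), and both plates had that direction (log2 ratios -0.92 and -1.14). The adjusted p ranged from 0.00365 to 0.141 over the 17 other fits and was below the threshold in 4 of them. From intermediate to myelinating the log2 change was -0.67 (95% interval -1.33 to -0.01, adjusted p = 0.520), and from immature to cycling wells it was -0.64 (-1.30 to 0.01, adjusted p = 0.332). In cycling wells of plate 2, 1 well gave 50.3% of the Adam17 reads.

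The share of wells with an Adam17 read at 100000 reads was highest by its mean in cycling wells, with 61.3% (42.2 to 78.2) and 75.0% (53.3 to 90.2) on plates 1 and 2. It was 69.3% (59.3 to 78.1) and 61.5% (52.1 to 70.4) in immature, 50% (38.0 to 62.0) and 66.7% (54.3 to 77.6) in intermediate and 45.3% (35.6 to 55.2) and 41.6% (32.4 to 51.2) in myelinating wells. Cycling wells came before immature wells by mean share, but the order was the reverse on plate 1 and the intervals overlapped. By level they came after immature wells on both plates. Myelinating wells were lowest by share and by level. The summed level of the 5 fibroblast-like markers, all with reads, was 2302 to 3426 CPM in cycling, 2012 to 2263 in immature, 860 to 1140 in intermediate and 333 to 353 in myelinating sums. Most of it came from Col3a1 and Col1a1, which were read in 599 and 625 of 655 wells. Dcn was read in 27 wells and Lum in 8, while Pdgfra had 94 reads in 3 wells. Median reads per well were 476354 and 418999 in immature and 819462 and 719230 in myelinating wells. The part of either in the Adam17 values was not tested. Its exons overlap those of Iah1.

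**Figure D2:**
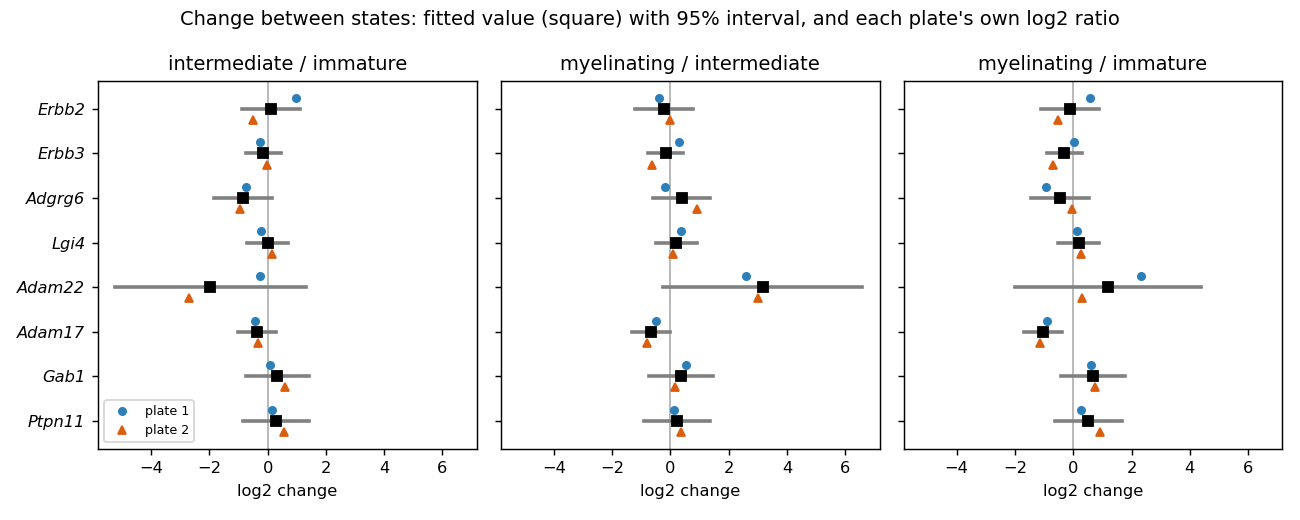
Log2 change of each tested gene between states on the horizontal axis in 3 comparisons, with squares for the edgeR value, grey lines for its 95% interval, circles for the log2 ratio within plate 1 and triangles for that within plate 2. The interval of Adam17 lies below 0 in myelinating against immature (-1.70 to -0.38), and that of Adam22 is the widest.

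Behind the receptors, the docking protein Gab1 (ENSMUSG00000031714, chr8:80764438-80880519, minus strand) measured 31.6 and 86.4 CPM in cycling, 34.5 and 27.7 in immature, 36.6 and 41.8 in intermediate and 53.1 and 47.1 in myelinating sums. Outside cycling wells the 3 states did not overlap and were ordered as listed. From immature to myelinating wells the log2 change was 0.69 (SE 0.48, 95% interval -0.41 to 1.79, adjusted p = 0.583), with log2 ratios of 0.62 and 0.76 on the 2 plates. Reads were found in 23.8% and 21.4% of immature wells at 100000 reads and in 37.7% and 36.3% of myelinating wells.

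Ptpn11 (ENSMUSG00000043733, chr5:121130533-121191397, minus strand) measured 130 and 49.8 CPM in cycling, 104 and 49.3 in immature, 114 and 72.5 in intermediate and 124 and 93.9 in myelinating sums. It was higher on plate 1 in 4 of 4 states, by 2.61 times in cycling, 2.10 in immature, 1.57 in intermediate and 1.33 in myelinating wells. Between immature and myelinating wells the fitted log2 change was 0.51 (SE 0.51, 95% interval -0.64 to 1.66, adjusted p = 0.752), and with the plate as a block it was 0.61 (adjusted p = 0.422). At 100000 reads it was found in 32.7% and 22.2% of immature and in 48.1% and 48.7% of myelinating wells.

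Adgrg6 (ENSMUSG00000039116, chr10:14402583-14545659, minus strand) was lowest in intermediate wells by its mean. It measured 40.6 and 65.8 CPM in cycling, 53.8 and 45.0 in immature, 32.1 and 23.05 in intermediate and 27.8 and 44.1 in myelinating sums. Both intermediate sums lay below all cycling and immature sums, and the myelinating sum of plate 1 lay between them. The log2 change from immature to intermediate was -0.84 (SE 0.44, 95% interval -1.84 to 0.15, adjusted p = 0.552), from cycling to intermediate -0.95 (-1.94 to 0.05, adjusted p = 0.234) and from immature to myelinating -0.46 (-1.45 to 0.53, adjusted p = 0.737). At 100000 reads it was found in 33.7% and 35.9% of immature wells, 18.1% and 18.8% of intermediate wells and 27.4% and 33.6% of myelinating wells.

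Lgi4 (ENSMUSG00000036560, chr7:31059342-31070935, plus strand) had state means within 1.15 times of each other. It measured 81.1 and 68.8 CPM in cycling, 67.2 and 77.2 in immature, 57.4 and 86.6 in intermediate and 73.4 and 91.9 in myelinating sums, and the states overlapped. The log2 change from immature to myelinating was 0.19 (SE 0.31, 95% interval -0.51 to 0.90, adjusted p = 0.884), and it turned to -0.19 with plain library size and to -0.28 with limma on mean CPM over wells. At 100000 reads, 39.6% (30.0 to 49.8) and 40.2% (31.2 to 49.6) of immature wells and 61.3% (51.4 to 70.6) and 72.6% (63.4 to 80.5) of myelinating wells had a read. Its exons overlap those of Fxyd3, and reads from the overlap may belong to either gene.

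Its binding partner Adam22 (ENSMUSG00000040537, chr5:8072352-8368160, minus strand) was read in 62 of 655 wells (9.47%). It measured 0.623 and 6.87 CPM in cycling, 2.31 and 7.92 in immature, 1.82 and 0.795 in intermediate and 13.5 and 9.94 in myelinating sums. Both myelinating sums lay above the other 6. The log2 change was 1.20 from immature to myelinating (SE 1.41, 95% interval -1.99 to 4.39, adjusted p = 0.817) and 3.17 from intermediate to myelinating (SE 1.51, -0.26 to 6.59, adjusted p = 0.572). These intervals are wide, and a single well gave up to 92.3% of the reads of a sum. Reads were found at 100000 reads in 11.3% (5.99 to 18.9) and 14.2% (8.32 to 21.97) of myelinating wells and in 1.39% (0.0352 to 7.50) and 1.45% (0.0367 to 7.81) of intermediate wells.

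**Figure D3:**
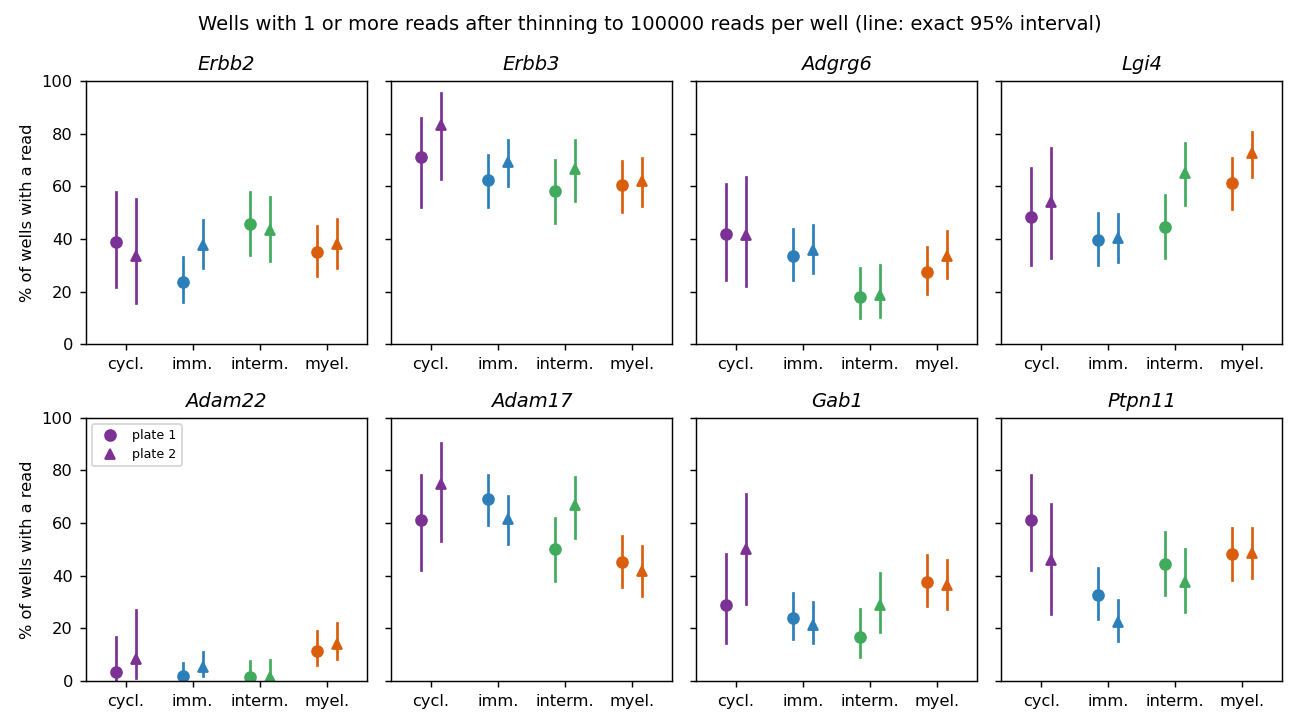
Share of wells with 1 or more reads of each tested gene, in percent, after thinning to 100000 reads per well, by state, with circles for plate 1, triangles for plate 2 and lines for exact 95% intervals. Lgi4 is read in 39.6% and 40.2% of immature and 61.3% and 72.6% of myelinating wells, and Adam17 in 69.3% and 61.5% against 45.3% and 41.6%.

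Rank correlations of the genes across single wells were small by their medians, and ran from -0.45 to 0.32 in single groups of wells. Over 28 pairs of the 8 genes, the median Spearman rho over the 8 groups of wells ran from -0.12 for Adam22 with Adam17 to 0.14 for Adgrg6 with Lgi4, and was 0.12 for Erbb2 with Erbb3, values too weak to read in sparse counts. Wells held reads of a median of 3 or 4 of the 9 genes in every state and plate, and at most of 8.

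Over the 8 sums, the genes most like each member were taken among about 3542 genes with a mean of at least 50 CPM, by Pearson's r of log2(CPM + 1), as a description of sums that share plates and states. The closest to Adam17 was Capg (r = 0.97), a protein that caps actin filaments, before Prpf8 and Polr2j. The closest to Gab1 was Opa3 (0.97), to Ptpn11 the G protein subunit gene Gna11 (0.96), and to Adgrg6 Manbal (0.93), followed by Nfkbia and Nfib (both 0.90). Closest to Erbb3 was Mettl26 (0.92), to Erbb2 Slirp (0.90), and to Lgi4 Uqcrb and Tpi1 (both 0.89). Each is the top of a search through about 3542 genes over only 8 sums, where high values of r can arise by the search alone. None was tested.

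Other genes around these pathways were also counted. With only 8 members tested, 0 of 8 past the threshold is not read as a contrast with them. Of 92 pathway genes in 5 lists, 81 were tested, and 11 passed in myelinating against immature, where 5.14% of all genes did. The lists were set with earlier results of these data known, so their counts are a description. All 11 kept their direction on both plates and in the 17 other fits.

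Of 13 other ligands and sheddases, 9 were tested, and 2 rose and 1 fell from immature to myelinating (median log2 change of the list 0.11). Hbegf, a growth factor of the EGF family that binds Egfr and Erbb4, measured 132 and 198 CPM in cycling, 243 and 118 in immature, 13.1 and 21.4 in intermediate and 33.8 and 34.9 in myelinating sums. It fell from immature to myelinating (log2 change -2.40, SE 0.42, adjusted p = 0.0115) and from immature to intermediate (log2 change -3.39, SE 0.44, adjusted p = 0.00566), and both later states lay below both earlier ones. Of its receptors, Egfr had 1 read and Erbb4 266 reads in 10 wells.

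Bace2, a relative of the neuregulin-cutting protease Bace1, measured 19.2 and 14.1 CPM in cycling, 6.03 and 11.7 in immature, 53.0 and 37.1 in intermediate and 151 and 149 in myelinating sums. The states did not overlap, and from immature to myelinating it rose by 4.08 on the log2 scale (SE 0.46, adjusted p = 0.00114). From immature to intermediate the change was 2.35 (adjusted p = 0.0290), which passed in 14 of the 17 other fits and not with the plate as a block (0.0558). The sheddase Adam10 measured 247 and 200 CPM in immature and 541 and 533 in myelinating sums, a rise of 1.27 (SE 0.24, adjusted p = 0.0183) that passed in 14 of the 17 other fits and not with plain library size. Of the other neuregulins, Nrg2 had 6 reads, Nrg3 had 0 reads and Nrg4 was read in 139 wells. Adam19, chosen after its values were seen, measured 7.86 and 64.4 CPM in cycling, 47.8 and 55.6 in immature, 0.150 and 0.0935 in intermediate and 0.0358 and 2.19 in myelinating sums, and passed in intermediate against cycling (adjusted p = 0.0300) and in 16 of the 17 other fits, but not with an Ncmap limit of 5 CPM. Its 2 cycling sums lay far apart. It did not pass in myelinating against immature.

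Among 7 receptors and receptor regulators, 6 were tested and 0 passed in myelinating against immature with edgeR (1 at an unadjusted p under 0.05, 0 with DESeq2). In myelinating against cycling 1 passed, Rnf41 (Nrdp1), a ubiquitin ligase known to bring about the degradation of Erbb3, named here after its values were seen. It measured 39.5 and 22.8 CPM in cycling, 62.8 and 58.0 in immature, 62.6 and 79.5 in intermediate and 108 and 124 in myelinating sums, and rose by 1.90 on the log2 scale from cycling to myelinating (SE 0.35, adjusted p = 0.00755).

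Of 38 adaptors and kinases counted here, 36 were tested, and 2 fell from immature to myelinating (list median 0.15). Spry2 and Dusp6, known as feedback inhibitors of the Ras/Mapk cascade, were the 2 that fell. Spry2 went from 215 and 263 CPM in immature to 39.2 and 27.2 in myelinating sums, a log2 change of -2.85 (SE 0.47, adjusted p = 0.00912). Dusp6 went from 201 and 238 to 79.8 and 26.8 CPM, a change of -2.04 (SE 0.48, adjusted p = 0.0469), and passed in 13 of the 17 other fits. It did not pass with the plate as a block (0.0549), a minimum of 1000 detected genes, a Pmp22 limit of 40000 CPM or wells near a limit left out.

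Of 28 genes of Adgrg6 ligands and cyclic AMP signalling, 26 were tested, and 2 rose and 2 fell (list median 0.07). The phosphodiesterases Pde4b and Pde4d, which break down cyclic AMP, were the 2 that fell. Pde4b measured 84.2 and 115 CPM in cycling, 41.5 and 129 in immature, 23.4 and 11.4 in intermediate and 5.08 and 7.94 in myelinating sums, and changed by -3.71 from immature to myelinating (SE 0.64, adjusted p = 0.0111). Pde4d went from 39.2 and 22.9 CPM in immature to 2.96 and 4.25 in myelinating sums, a change of -3.11 (SE 0.66, adjusted p = 0.0293, and 0.0548 with the plate as a block).

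Gnai1, an inhibitory G protein subunit, rose from 156 and 140 to 341 and 360 CPM, by 1.24 on the log2 scale (SE 0.20, adjusted p = 0.00799). Collagen IV is a known ligand of Adgrg6, and its chain gene Col4a2, which falls outside the rule for naming, went from 167 and 156 to 305 and 397 CPM, a change of 1.12 (SE 0.21, adjusted p = 0.0163) that passed in 14 of the 17 other fits and not with plain library size. Col4a1, the gene of another collagen IV chain, measured 166 and 128 CPM in immature and 219 and 211 in myelinating sums and did not pass. Prnp, whose protein is another ligand, measured 386 and 376 CPM in immature and 248 and 221 in myelinating sums and did not pass. Lama2, also in this list, did not pass either, with 387 and 500 CPM in immature and 354 and 440 in myelinating sums.

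Of 6 Lgi and Adam partners, 4 were tested, and 2, Lgi1 and Adam23, fell from immature to myelinating (list median -3.45). Lgi1, a secreted relative of Lgi4, measured 102 and 57.2 CPM in cycling, 66.7 and 97.5 in immature, 17.3 and 22.4 in intermediate and 7.63 and 9.92 in myelinating sums, a change of -3.22 (SE 0.45, adjusted p = 0.00385) from immature to myelinating. Adam23, a relative of Adam22 that also binds Lgi proteins, measured 73.6 and 52.5 CPM in cycling, 133 and 62.0 in immature, 33.5 and 37.2 in intermediate and 7.83 and 7.53 in myelinating sums, a change of -3.67 (SE 0.47, adjusted p = 0.00224). The change of either was not tested against that of Lgi4 or Adam22. Adam11, another relative of Adam22, was read in 8 wells and did not pass, and Lgi2 and Lgi3 had 0 reads. The summed fibroblast-like list, which is mostly Col3a1 and Col1a1, and the depth per well, both given beside Adam17 above, moved across the same comparison. Their part in these 11 genes was not tested.

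**Figure D4:**
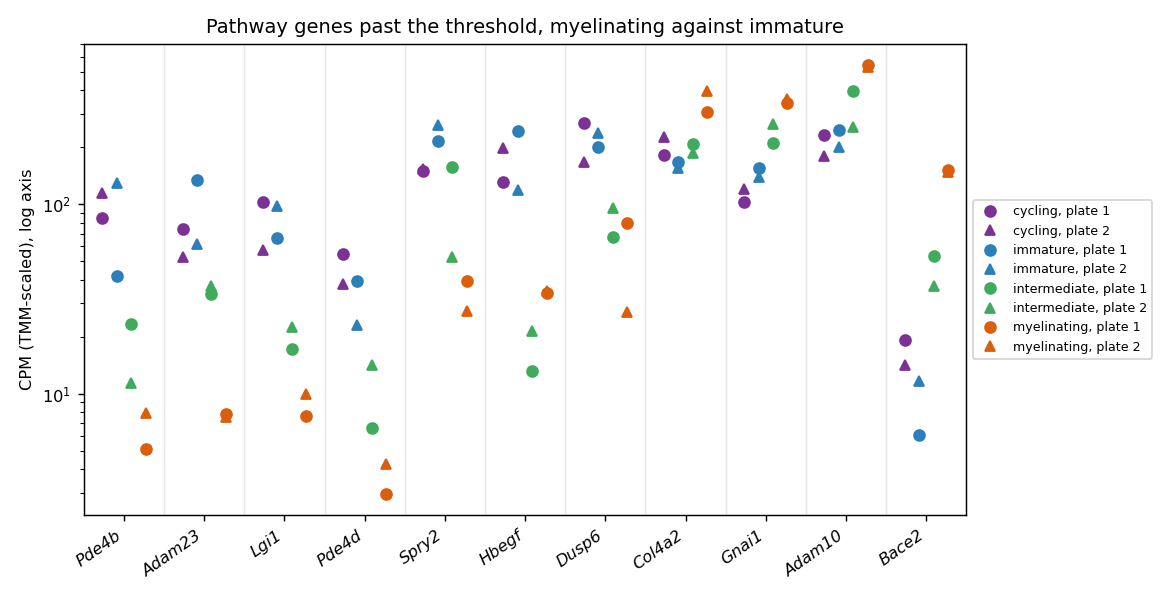
Level in CPM (TMM-scaled, log axis) of the 11 pathway genes that passed in myelinating against immature, ordered by their log2 change, with states in colour, circles for plate 1 and triangles for plate 2. Adam23 drops to 7.83 and 7.53 CPM and Bace2 climbs to 151 and 149 CPM in myelinating sums.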

How the data were processed

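RNA of single sorted cells was read in 768 wells, and the table deposited by the authors gives unnormalized counts of reads for every gene in every well. The labels name bcl2fastq, STAR 2.6.1c, featureCounts and build GRCm38.p5 for the steps by which the authors made these counts. Whether strand was used is not given in the sources used here. The methods of the study name a human build, whereas the gene identifiers are of mouse. Symbols, coordinates and merged exon lengths are those of GENCODE vM21 (GRCm38), which matched 25587 of 25700 identifiers. The 113 others held 0.0916% of reads.

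Retained wells held 3306 to 2495101 reads (median 582414). Choosing states by the CPM of myelin genes ties a state to the RNA composition of its wells. No doublet caller was run. Reads were summed per state and plate and fitted with edgeR 4.0.16 in R 4.3.3 (TMM, filterByExpr by state, quasi-likelihood test, common dispersion 0.713, 4 residual degrees of freedom). Each standard error was taken as the log2 change over the square root of its F. For ratios within 1 plate, 0.5 CPM was added to each level. Other fits used DESeq2 1.42.0, limma 3.58.1 on log2(CPM + 1), other scalings and other limits. Python 3.11.15 with pandas 2.3.3 and scipy 1.17.1 did the rest. The fit was also run on simulated data. Neither the settings nor the result of that run are given here, so it does not show which changes the fit could detect in these data.

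Plate numbers pair the sums, since the states of a plate come from the same pooled animals. Deviations of such sums correlated with r from -0.00766 to 0.130 over 1975 genes for the 6 pairs of states. The plate as a block was an alternative fit.

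Besides the 9 members, genes were named by a rule: per member at a mean of 10 CPM or more, the 3 most like it over the 8 sums, and per pathway list up to 3 genes past the threshold with the largest change in myelinating against immature and one direction on both plates. The members and lists were chosen with earlier results of these data known. Results for 2 genes of these lists are not reported here, and their lists are counted without them.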

Additional observations from a re-analysis of the deposited data

Results flagged for a closer look

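Reads of the 9 genes also lay in wells that no comparison used. The 105 wells below the minimum of detected genes held 6544 such reads, above the 3 that a count of 0 allows. Of these, 4886 were of Gab1 in 10 wells, and 4764 of them sat in 1 well with 22451 reads and 434 detected genes. Ptpn11 gave 1326 reads in 10 wells, Lgi4 146, Adgrg6 94 and Erbb3 84. The 8 corner wells held 5 reads of the 9 genes, 3 of Erbb3 and 1 each of Gab1 and Ptpn11.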

How the results depend on the processing

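Over 14 log2 changes of the 8 tested genes, the 17 other fits gave 238 values. These 14 were the change of each gene in myelinating against immature and, of the other comparisons, only those with the lowest unadjusted p. Changes nearer 0 in the other comparisons were left out, so these counts do not describe all 6 comparisons. Of these 229 kept direction and side of the threshold, 6 passed the threshold where the edgeR value did not, and 3 turned sign: Erbb2 in myelinating against immature with a Pmp22 limit of 40000 CPM (0.00), and Lgi4 in the same comparison with plain library size (-0.19) and with limma on mean CPM (-0.28). The number of the 8 genes past the threshold in myelinating against immature went from 0 to 1 with DESeq2, plain library size or thinning to 100000 reads and to 2 with limma, and in cycling against immature to 1 with limma. Of all genes in myelinating against immature, 1710 of 13709 passed with DESeq2 and 949 of 13904 with plain library size. With thinning 1005 of 12864 passed there, and with limma 1578 of 13904. The pathway counts were recomputed by a choice made after seeing the data. In cycling against immature their count went from 0 to 5 with DESeq2. In intermediate against immature it went from 2 to 10 with DESeq2, 8 without the low-count filter, 6 with thinning and 9 with limma, and to 1 with the replicate block, with a Pmp22 limit of 20000 CPM or without wells near a limit. In myelinating against intermediate it went from 0 to 9 with DESeq2, 4 without the filter, and 1 with plain library size, thinning or limma. In intermediate against cycling it went from 6 to 21 with DESeq2, 13 without the filter and 11 with limma, and in myelinating against cycling from 12 to 19 with DESeq2. The cause was not tested. Over all genes tested, the number past the threshold went from 359 in cycling against immature to between 259 and 1617, from 278 in intermediate against immature to between 180 and 1043, from 109 in myelinating against intermediate to between 81 and 743, from 715 in myelinating against immature to between 591 and 1710, from 1328 in intermediate against cycling to between 1078 and 3030 and from 1774 in myelinating against cycling to between 1558 and 3567, each time highest with DESeq2. The replicate block changed no call of a member, and 0 of the 8 passed with it. Without replicate 1 or 2, what remains is the ratio within the other plate, which carries no test. Of 28 such ratios 3 had another sign than the edgeR value, all without replicate 2: Erbb2 (0.57 beside -0.11) and Erbb3 (0.01 beside -0.31) in myelinating against immature and Gab1 in cycling against immature (-0.12 beside 0.93). With all 8 genes counted, the 2 plates had the same direction for 6 of 8 in each of the 3 comparisons among immature, intermediate and myelinating wells. They did so for 4 of 8 in cycling against immature, 2 in intermediate against cycling and 3 in myelinating against cycling. For the share of wells with a read, a minimum of 5 reads and thinning were the 2 alternatives run, and 35 of 72 values moved beyond the spread between plates. Nrg1 and Adam22 had reads in the fewest wells, 3 and 62.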
